A study of Rattus norvegicus with 12 samples.

Results

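Basement membrane genes were examined across the adenine and UUO models of renal fibrosis in the rat. The members were chosen by name as the 6 chains of type IV collagen (Col4a1 to Col4a6), both nidogens (Nid1 and Nid2), Col18a1 and Hspg2. Of these 10 genes, 9 had 1 entry each in both tables, out of 22132 entries in the table of the adenine model and 32623 in that of the UUO model, and Hspg2 had no row under its symbol.

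Basement membranes are thin sheets of matrix that underlie epithelia and surround capillaries, and their main scaffold is a network of type IV collagen. Each collagen IV molecule is a trimer, and the chains made by a cell decide which trimers it can secrete. The trimer of alpha1 and alpha2 chains is found in nearly every basement membrane, the trimer of alpha3, alpha4 and alpha5 chains is the mature network of the glomerular filter and of some tubules, and the trimer of alpha5 and alpha6 chains occurs in Bowman's capsule. Defects of Col4a3, Col4a4 or Col4a5 cause Alport syndrome. Nidogens bridge the laminin and collagen IV networks, Col18a1 encodes a collagen that carries heparan sulfate and releases endostatin, and Hspg2 encodes perlecan, a heparan sulfate proteoglycan.

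RNA was sequenced from the kidneys of 12 male Sprague-Dawley rats of genotype WT, in 4 groups of 3 different animals. The rats were 8 weeks old when purchased, before acclimatization and treatment. The adenine group was gavaged for 3 weeks with adenine at a daily dose of 220 mg/kg, and the control group received saline. Adenine forms crystals that injure renal tubules. The UUO (unilateral ureteral obstruction) group was examined 2 weeks after the ligation of a ureter, and the sham group 2 weeks after sham surgery. All libraries held poly(A) RNA of kidney tissue, so a smaller number of cells of a type and less RNA per cell cannot be told apart.

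Upstream sequences of collagen IV genes are shown because the 6 genes lie in 3 pairs that are transcribed away from each other, and the results below turn on how the chains of a pair moved. RefSeq's table of promoters of the rat genome build GRCr8 held a window for 9 of the 10 members, Hspg2 among them but not Nid2. Each window ran from 250 bases before to 50 bases after the start of the gene. The start sites of Col4a1 and Col4a2 were separated by 76 bases, those of Col4a3 and Col4a4 by 412 bases, and those of Col4a5 and Col4a6 by 1414 bases. The windows of Col4a1 and Col4a2 shared 176 bases, those of Col4a3 and Col4a4 shared 88 bases, and those of Col4a5 and Col4a6 shared 0 bases. The stretch between the starts of Col4a1 and Col4a2 (chr16:84885521-84885596, plus strand) and the 250 bases before each of the other starts read as follows, with matches to GGGCGG on either strand in capitals. These lie at chr9:91323740-91323989 (plus strand) for Col4a3, chr9:91323578-91323827 (minus strand) for Col4a4, chrX:109907109-109907358 (plus strand) for Col4a5 and chrX:109905945-109906194 (minus strand) for Col4a6.
Col4a1 to Col4a2: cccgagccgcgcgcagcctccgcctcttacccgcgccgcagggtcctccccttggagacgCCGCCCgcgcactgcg
Col4a3: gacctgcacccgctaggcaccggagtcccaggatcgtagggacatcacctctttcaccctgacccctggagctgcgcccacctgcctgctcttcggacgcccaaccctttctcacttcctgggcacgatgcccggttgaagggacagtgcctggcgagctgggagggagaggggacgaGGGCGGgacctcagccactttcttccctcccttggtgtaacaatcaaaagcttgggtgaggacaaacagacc
Col4a4: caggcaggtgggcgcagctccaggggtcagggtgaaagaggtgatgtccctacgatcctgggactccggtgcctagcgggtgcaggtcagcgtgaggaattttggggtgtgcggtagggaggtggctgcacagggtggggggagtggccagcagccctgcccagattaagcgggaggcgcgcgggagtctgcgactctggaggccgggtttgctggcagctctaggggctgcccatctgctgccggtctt
Col4a5: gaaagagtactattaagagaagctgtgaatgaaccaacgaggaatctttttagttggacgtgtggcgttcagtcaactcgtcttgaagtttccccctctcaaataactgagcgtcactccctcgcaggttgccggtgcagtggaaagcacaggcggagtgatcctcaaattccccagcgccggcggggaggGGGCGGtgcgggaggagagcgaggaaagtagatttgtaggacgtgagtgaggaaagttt
Col4a6: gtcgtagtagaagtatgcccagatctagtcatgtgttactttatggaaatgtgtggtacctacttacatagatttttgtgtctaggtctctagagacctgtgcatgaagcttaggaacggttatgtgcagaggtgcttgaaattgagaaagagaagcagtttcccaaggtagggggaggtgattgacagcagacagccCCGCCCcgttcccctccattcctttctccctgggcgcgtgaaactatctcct

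Searched on both strands, GGGCGG (the GC box) was in 8 of these 9 windows, that of Hspg2 included and that of Col4a4 not. It was in 33.1% of all 33469 windows of 300 bases. CCAAT was in 3 of the 9 windows, those of Col4a1, Col4a2 and Nid1, and in 37.5% of all windows. TATAAA was in 0 of the 9 windows and in 14.2% of all windows. The matches are letters in a window and say nothing about binding.

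The tables hold FPKM (fragment density corrected for transcript length and library size), and read numbers per sample were not available, so precision rests on the spread between 3 rats. Summed FPKM was 468389 to 582725 over the control and adenine rats and 528811 to 630244 over the sham and UUO rats, with the lower values in the adenine and UUO rats. Fold changes were on the log2(FPKM + 0.1) scale, from limma fitted to 15029 and 15043 entries, and DEGs were called at an adjusted p under 0.05 with a log2 fold change of 2 or more in size. The median log2 fold change over all tested entries was 0.30 in the adenine model and 0.62 after UUO, against which the members' changes can be read. With median-of-ratios scaling, which brings these medians to 0.0056 and 0.023, every member's log2 fold change was lower than reported here.

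As shown in the plot of FPKM by sample, the 9 genes spanned a wide range of levels, with Col4a6 lowest in all 4 groups. In the control group, Col18a1 (43.4 ± 10.7 FPKM, SD, n = 3), Nid1 (33.5 ± 5.92) and Col4a1 (27.5 ± 4.75) had the highest means and each overlapped the next. In the adenine group, Col4a1 (136 ± 26.2 FPKM) stood above all other members, followed by Col18a1 (64.2 ± 3.65) and Col4a2 (64.0 ± 12.4), whose ranges overlapped. In the sham group, Nid1 (62.5 ± 9.97 FPKM), Col18a1 (45.0 ± 11.03) and Col4a1 (43.2 ± 4.62) again overlapped at the top. In the UUO group, Col4a1 (370 ± 30.3 FPKM) was highest, and Col4a2 (163 ± 15.4) overlapped Nid1 (142 ± 15.2) in second place.

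**Figure D1:**
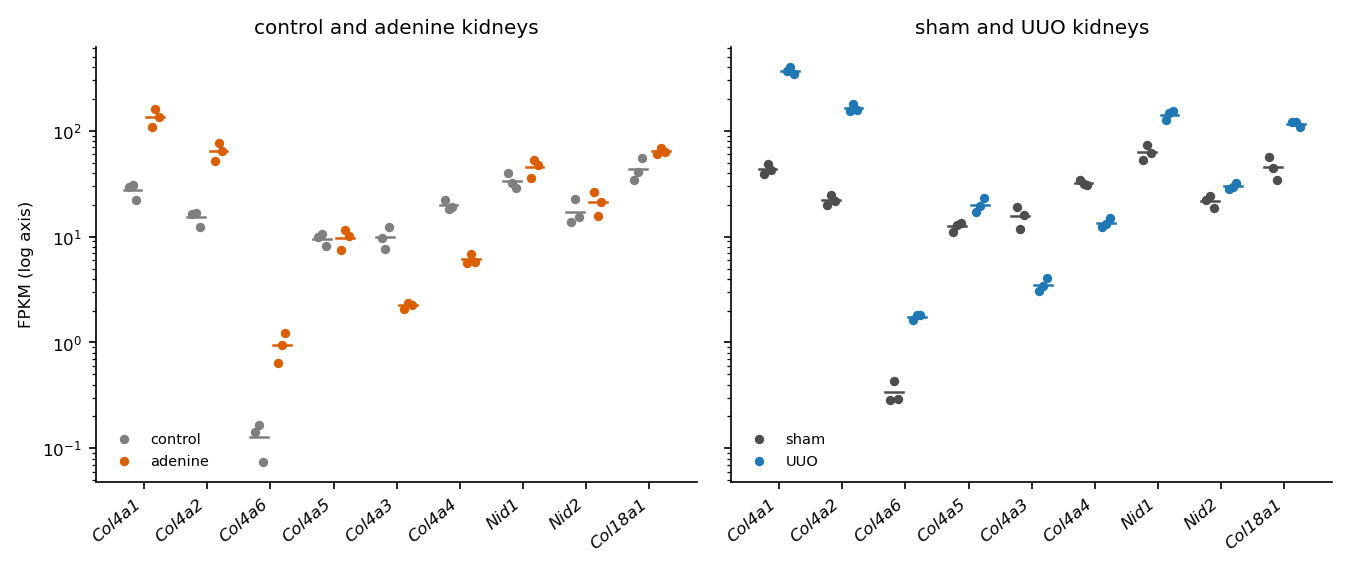
FPKM (log axis) of the 9 genes in each rat, with control and adenine kidneys on the left and sham and UUO kidneys on the right; points are rats and short lines are group means (n = 3). Col4a1, Col4a2 and Col4a6 sit higher and Col4a3 and Col4a4 lower in both models, without overlap, while Col4a5, Nid1 and Nid2 overlap between the control and adenine groups.

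In the adenine model, 3 of the 9 members were upregulated DEGs (Col4a1, Col4a2 and Col4a6) and 1 was a downregulated DEG (Col4a3), against 10.7% of all tested entries upregulated and 5.03% downregulated. After UUO, the same 4 genes passed in the same directions, against 13.2% upregulated and 4.21% downregulated. All 9 members passed the filter on low values in both tables, but Col4a6 passed only through the adenine and UUO rats, so its rise does not count as support. Without a fold threshold, 6 of the 9 members passed the adjusted p in the adenine model, 4 higher and 2 lower (59.4% of all entries, 39.6% higher and 19.9% lower). After UUO all 9 passed it, 7 higher and 2 lower (70.5% of all entries, 56.1% higher and 14.4% lower), so the smaller rises were changes that a large part of all entries also made.

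The chains of the ubiquitous network, Col4a1 and Col4a2, rose in both models. Col4a1 was 29.6, 30.7 and 22.0 FPKM in the control rats and 110, 162 and 136 in the adenine rats. The lowest adenine rat was above every control rat by a wide margin, and the log2 fold change was 2.30 (SE 0.19, limma adjusted p = 0.000138). After UUO it went from 38.8, 48.0 and 42.7 FPKM in the sham rats to 363, 403 and 343 in the UUO rats (log2 fold change 3.10, SE 0.11, limma adjusted p = 8.66e-06). These are 4.94-fold and 8.56-fold higher means.

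Col4a2 moved in the same direction as Col4a1. It was 16.3, 16.8 and 12.5 FPKM in the control rats and 51.3, 76.1 and 64.6 in the adenine rats, with control rat 3 lowest and adenine rat 2 highest, as for Col4a1 (log2 fold change 2.06, SE 0.18, limma adjusted p = 0.000186). It was 19.8, 24.6 and 21.8 FPKM in the sham rats and 153, 181 and 156 in the UUO rats, again without overlap (log2 fold change 2.88, SE 0.11, limma adjusted p = 1.09e-05). In the adenine model Col4a2 lay close to the fold threshold and was under it without control rat 3 (1.93) or adenine rat 2 (1.93), and with median-of-ratios scaling (1.77).

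Col4a3 and Col4a4, the chains of the mature glomerular network, moved the other way. Col4a3 was 9.69, 7.58 and 12.4 FPKM in the control rats and 2.07, 2.37 and 2.28 in the adenine rats. The adenine rats were close together and all far below the control rats, a 4.41-fold lower mean (log2 fold change -2.07, SE 0.20, limma adjusted p = 0.000259). In the sham rats it was 19.2, 11.9 and 15.9 FPKM, and in the UUO rats 3.04, 3.41 and 4.03, a 4.49-fold lower mean (log2 fold change -2.12, SE 0.20, limma adjusted p = 0.000145). Its fall passed an adjusted p of 0.05 under all 17 settings in each model. These count the reported fit itself and a log2 ratio of mean FPKM that takes over the p-value of that fit. The fall of Col4a3 was short of the fold threshold without control rat 3 (-1.89) and without sham rat 1 (-1.96), the rats with the highest Col4a3 in their groups.

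Col4a4 was 22.4, 18.4 and 19.2 FPKM in the control rats and 5.69, 6.92 and 5.81 in the adenine rats (log2 fold change -1.69, SE 0.13, limma adjusted p = 0.000122). It was 33.9, 31.7 and 30.9 FPKM in the sham rats and 12.4, 13.1 and 15.1 in the UUO rats (log2 fold change -1.25, SE 0.10, limma adjusted p = 8.77e-05). The groups did not overlap in either model, and the fall passed the adjusted p under the same 17 settings in each. Yet Col4a4 was not a DEG because both changes were smaller than the fold threshold. The means were 3.26-fold and 2.38-fold lower.

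The third pair, Col4a5 and Col4a6 on the X chromosome, did not move together. Col4a5, whose chain enters both of the restricted trimers, was 10.02, 10.5 and 8.10 FPKM in the control rats and 7.41, 11.4 and 10.2 in the adenine rats. The groups overlapped, and the log2 fold change was 0.01 (95% interval -0.46 to 0.48, limma adjusted p = 0.976), which turned to -0.28 with median-of-ratios scaling. With UUO it was 11.1, 13.0 and 13.6 FPKM in the sham rats and 17.1, 19.5 and 23.3 in the UUO rats, higher in every UUO rat (log2 fold change 0.66, SE 0.14, limma adjusted p = 0.00562). That change equalled little more than the median of all entries, and was 0.06 with median-of-ratios scaling (limma adjusted p = 0.711).

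Col4a6 was at the bottom of the range throughout. It was 0.142, 0.167 and 0.0742 FPKM in the control rats and 0.645, 0.95 and 1.24 in the adenine rats (log2 fold change 2.18, SE 0.35, limma adjusted p = 0.00203). It was 0.287, 0.433 and 0.292 FPKM in the sham rats and 1.63, 1.83 and 1.81 in the UUO rats (log2 fold change 2.10, SE 0.25, limma adjusted p = 0.000368). At levels this low the pseudocount shrinks the fold change, and with a pseudocount of 1 it was 0.78 and 1.05. The ratio of the mean FPKM was 7.39-fold in the adenine model and 5.21-fold after UUO.

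**Figure D2:**
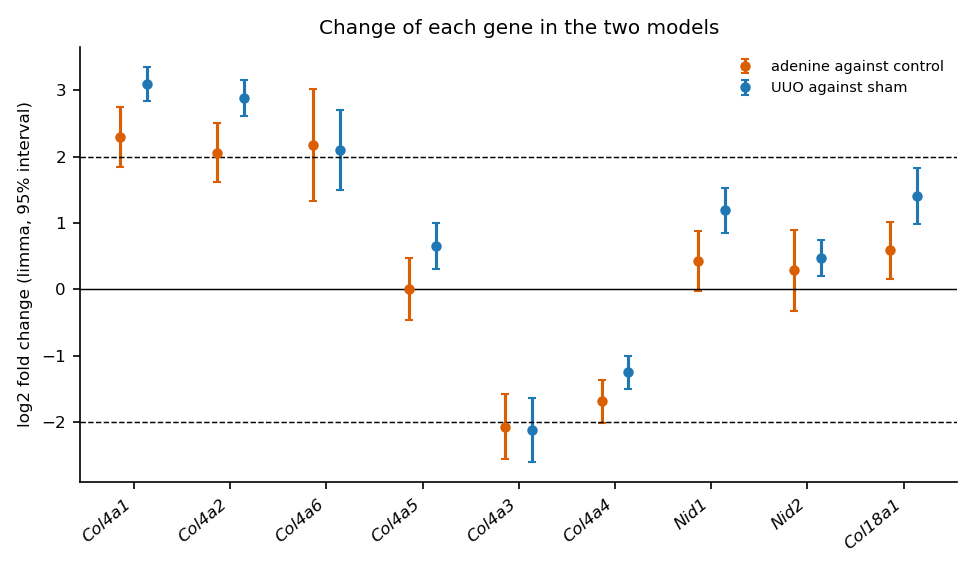
Log2 fold change (vertical axis, limma) of the 9 genes in the adenine model (orange) and the UUO model (blue), with 95% intervals and dashed lines at the fold threshold of 2 in each direction. Col4a1 (2.30 and 3.10) and Col4a3 (-2.07 and -2.12) mark the ends of the range, and Col4a5 (0.01) and Nid2 (0.29) under adenine and Nid2 (0.48) after UUO lie near 0 and change sign with median-of-ratios scaling.

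The opposite movements changed the chain make-up of collagen IV mRNA, a share within each sample that does not depend on how samples are scaled. Col4a1 and Col4a2 together held 52.1%, 56.5% and 46.5% of the summed FPKM of the 6 chains in the control rats and 91.0%, 91.7% and 91.1% in the adenine rats. They held 47.6%, 56.0% and 51.5% in the sham rats and 93.8%, 93.9% and 91.9% in the UUO rats. The mean share was 51.7% in both reference groups and 91.3% and 93.2% in the models, and the adenine rats differed among themselves far less than the control rats (SD 0.331% against 5.02%). Col4a3, Col4a4 and Col4a5 together went from 48.2% ± 5.07 to 8.30% ± 0.302 in the adenine model and from 48.0% ± 4.27 to 6.51% ± 1.13 after UUO (SD, n = 3).

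The largest loss of share was that of Col4a4, from 24.4% to 2.84% in the adenine model and from 25.6% to 2.38% after UUO. The share of Col4a3 went from 12.2% to 1.04% and from 12.5% to 0.614%, and that of Col4a5 from 11.6% to 4.42% and from 9.96% to 3.51%, while its mean FPKM was 9.55 and 9.70, and 12.6 and 19.97. Col4a6 held 0.153% in the control rats and 0.431% in the adenine rats, and its share overlapped between the sham and UUO groups. For the other 5 chains the groups did not overlap in either model, and the exact two-sided permutation p was 0.1, the smallest that 3 rats against 3 allow (0.109 after adjustment over all 12 chain shares). The summed FPKM of the 6 chains was 82.2 ± 7.17 in the control rats and 219 ± 41.5 in the adenine rats, and 126 ± 3.34 in the sham rats and 572 ± 43.3 in the UUO rats.

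**Figure D3:**
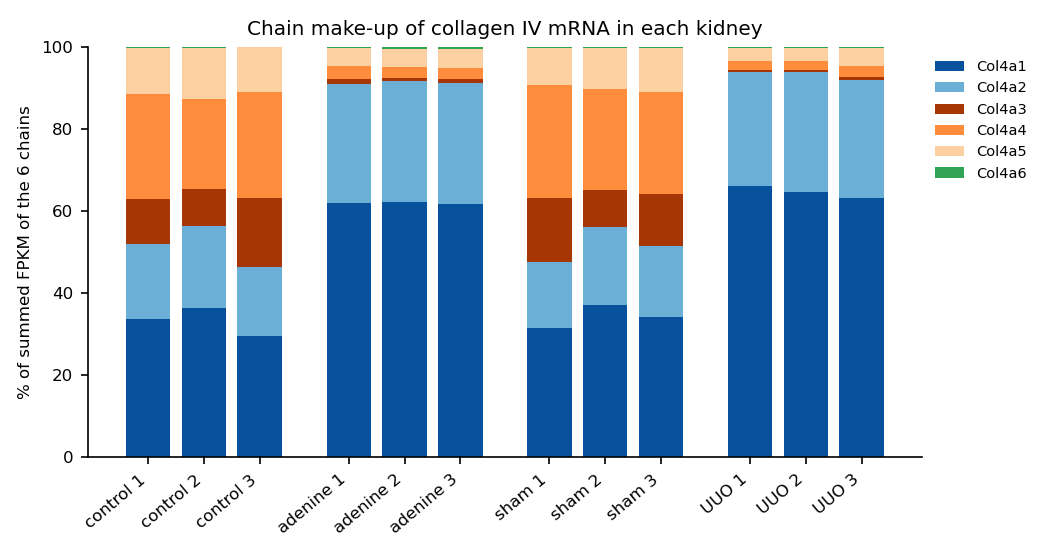
Share of the summed FPKM of the 6 collagen IV chains (vertical axis, percent) held by each chain in each of the 12 rats, as stacked bars. The blue part, Col4a1 and Col4a2, fills 46.5% to 56.5% of the control and sham bars and 91.0% to 93.9% of the adenine and UUO bars.

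The ratio of the chains within each gene pair was compared next, since it too is free of sample scaling. Col4a1 to Col4a2 was the tightest ratio of the 3 pairs, with 1.80 ± 0.0324 in the control rats and 2.12 ± 0.0184 in the adenine rats, and 1.96 ± 0.00682 in the sham rats and 2.27 ± 0.0968 in the UUO rats. The groups did not overlap, yet the shift was small beside the changes of both genes, 0.23 and 0.21 on the log2 scale. Col4a3 to Col4a4 was 0.434, 0.411 and 0.645 in the control rats and 0.364, 0.343 and 0.392 in the adenine rats. It was 0.566, 0.377 and 0.515 in the sham rats and 0.245, 0.260 and 0.266 in the UUO rats, so that Col4a3 mRNA was lowered more than its partner in both models, with log2 ratio differences of -0.41 and -0.90, of which the first was -0.21 without control rat 3.

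Col4a5 to Col4a6 was tested with the other ratios but is given here as a description only. The ratio rests on the rise of Col4a6, which passed the filter only through the adenine and UUO rats. It went from 80.9 ± 24.7 to 10.6 ± 2.04 in the adenine model and from 38.4 ± 8.29 to 11.3 ± 1.32 after UUO. On the log2 scale the differences were -2.91 and -1.74, and the first was -2.17 when 0.1 FPKM was added to both genes. For the ratios of Col4a1 to Col4a2 and of Col4a3 to Col4a4 the groups did not overlap in either model. Their exact two-sided permutation p was 0.1, the smallest possible. It was the same after adjustment over all 6 ratios, those of Col4a5 to Col4a6 included.

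**Figure D4:**
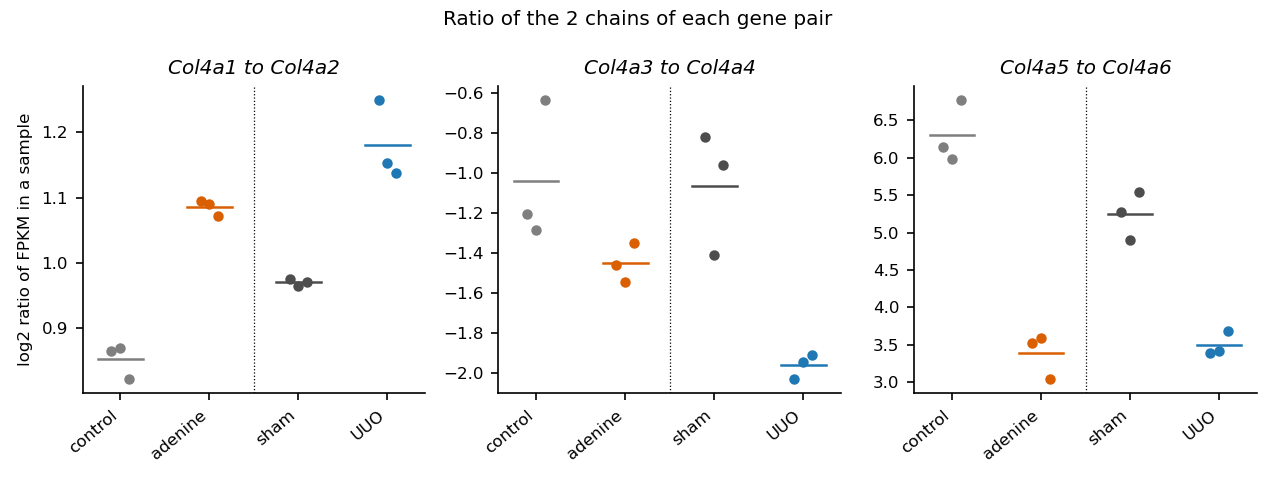
Log2 ratio of the FPKM of the chains of each gene pair (vertical axes, scaled separately) in each rat, with group means as lines (n = 3). Adenine minus control and UUO minus sham, the mean differs by 0.23 and 0.21 for Col4a1 to Col4a2, by -0.41 and -0.90 for Col4a3 to Col4a4, and by -2.91 and -1.74 for Col4a5 to Col4a6.

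Since podocytes are a main source of the alpha3, alpha4 and alpha5 chains, these were set beside 8 podocyte markers. The summed FPKM of the markers was 170, 36.8 and 226 in the control rats and 62.0, 103 and 69.0 in the adenine rats. Control rat 2 stood apart, with 0.217 and 0.163 times the sums of control rats 1 and 3, so the groups overlapped. Its Col4a3 was 0.782 and 0.613 times, and its Col4a4 0.824 and 0.960 times, that of the same rats. After UUO the marker sum was 146, 177 and 236 in the sham rats and 115, 140 and 102 in the UUO rats, lower in every UUO rat.

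Relative to these markers, Col4a3 was lower in both models. The log2 ratio went from -3.53 to -5.09 in the adenine model, a difference of -1.55, and from -3.57 to -5.09 after UUO, a difference of -1.52. The groups did not overlap in either model (exact two-sided permutation p = 0.1, and 0.2 after adjustment over 6 ratios), and without control rat 2 the adenine difference was -0.93. The ratio of Col4a4 overlapped between groups in both models, with differences of -1.14 (exact p = 0.2) and -0.62 (exact p = 0.2), and the first was -0.40 without control rat 2. Set against the mean of the marker logs instead of their sum, the Col4a4 groups did not overlap (differences -1.48 and -1.02, exact permutation p = 0.1 in each model), so the overlap depends on how the markers are combined. The ratio of Col4a5 overlapped in the adenine model (difference 0.57, exact p = 0.6), where it was 0.31, 1.44 and -0.05 without control rats 1, 2 and 3, and was higher in every UUO rat (difference 1.29, exact p = 0.1). The podocyte markers did not move as 1 group, and the part of podocyte number in these values was not tested.

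**Figure D5:**
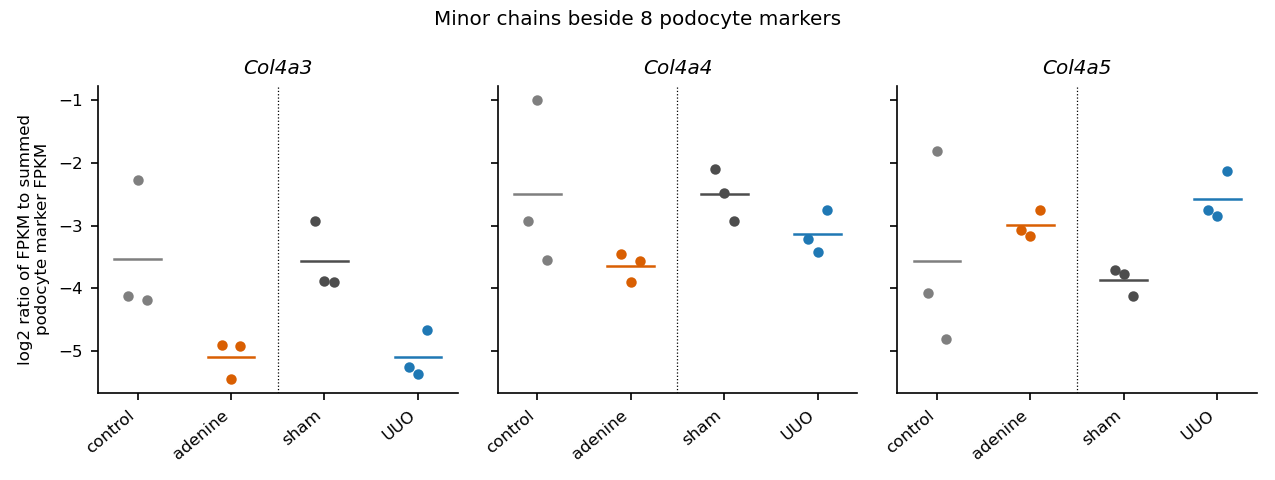
Log2 ratio of the FPKM of Col4a3, Col4a4 and Col4a5 to the summed FPKM of 8 podocyte markers (vertical axis) in each rat, with group means as lines (n = 3). Col4a3 falls from -3.53 to -5.09 and from -3.57 to -5.09 without overlap, Col4a4 overlaps in both models, and the single high control point in each panel is control rat 2.

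None of the nidogens and Col18a1 reached the fold threshold in either model. Nid1 was 40.1, 31.9 and 28.6 FPKM in the control rats and 35.7, 52.9 and 47.3 in the adenine rats, with overlap (log2 fold change 0.43, SE 0.19, limma adjusted p = 0.0907). After UUO it was 53.3, 73.1 and 61.2 FPKM in the sham rats and 125, 147 and 155 in the UUO rats (log2 fold change 1.19, SE 0.14, limma adjusted p = 0.000344). Every UUO rat was above every sham rat, and the change was 0.59 with median-of-ratios scaling (limma adjusted p = 0.0122).

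Nid2 was 13.7, 22.8 and 15.2 FPKM in the control rats and 26.4, 15.6 and 21.1 in the adenine rats, and the groups overlapped (log2 fold change 0.29, SE 0.26, limma adjusted p = 0.361). It was 22.0, 24.0 and 18.7 FPKM in the sham rats and 28.4, 29.5 and 31.9 in the UUO rats, and the change (log2 fold change 0.48, SE 0.11, limma adjusted p = 0.0083) was below the median of all entries and turned to -0.12 with median-of-ratios scaling. RefSeq names 11 Nid2 pseudogenes in the rat, so reads of Nid2 may be split among copies. The ratio of Nid1 to Nid2 overlapped between the control and adenine groups (2.06 and 2.33) and was 2.42, 3.05 and 3.27 in the sham rats and 4.40, 4.98 and 4.85 in the UUO rats.

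Col18a1 was 34.3, 40.8 and 55.2 FPKM in the control rats and 60.8, 68.1 and 63.6 in the adenine rats (log2 fold change 0.59, SE 0.18, limma adjusted p = 0.0262). It was 56.4, 44.2 and 34.4 FPKM in the sham rats and 122, 122 and 108 in the UUO rats (log2 fold change 1.41, SE 0.18, limma adjusted p = 0.000478). Neither pair of groups overlapped, and 6 of the 9 members in the adenine model and 9 of 9 after UUO had groups that did not overlap, against 68% and 75.7% of all tested entries. The adenine change of Col18a1 did not pass with median-of-ratios scaling (0.30, limma adjusted p = 0.217), nor when 1 rat was left out in 5 of 6 such fits (limma adjusted p up to 0.0761).

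Perlecan could not be measured under its own name. RefSeq lists AABR07073181.1 as a synonym of Hspg2, and both tables hold entries named AABR07073181, without a version, so the match is uncertain and the entries were not counted as members. In the adenine model's table it was 0.505, 0.513 and 0.485 FPKM in the control rats and 1.72, 1.66 and 1.40 in the adenine rats (log2 fold change 1.49, SE 0.21, limma adjusted p = 0.00123). In the UUO model's table an entry was 1.16, 0.853 and 1.12 FPKM in the sham rats and 3.59, 4.04 and 3.43 in the UUO rats (log2 fold change 1.73, SE 0.20, limma adjusted p = 0.000284), and another was at the table's lowest value of 0.0001 in all 6 rats.

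The response to both models was compared by the difference of the log2 fold changes, each taken within its own table. A t test of that difference, adjusted over all symbols compared, gave the p-values. At an adjusted p under 0.05, 4 of the 9 members differed, against 27% of 13486 symbols, and 0 differed by at least 2, against 2.88% of symbols. Col4a1 rose by 0.80 more in the UUO model (SE 0.22, t test adjusted p = 0.0174), and Col4a2 by 0.82 more (SE 0.22, t test adjusted p = 0.0144). Col18a1 (0.82, SE 0.25, t test adjusted p = 0.0292) and Nid1 (0.76, SE 0.24, t test adjusted p = 0.0295) differed in the same direction. With median-of-ratios scaling, which removes the larger general shift of the UUO table, these were 0.46 to 0.52. None of the 4 then passed (t test adjusted p from 0.123 to 0.207). Col4a1 and Col4a2 passed in all 12 fits that left out 1 rat. Col18a1 did not pass in 7 of them and Nid1 not in 6 (t test adjusted p up to 0.0642 and 0.0739). The fall of Col4a3 did not differ detectably between the models (-0.05, 95% interval -0.67 to 0.57). For Col4a6, which passed the filter only through the adenine and UUO rats, the difference is given as a description only. It was -0.08, and it turned on the pseudocount, with -0.44 at 0.01 and 0.27 at 1.

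Laminins form the other network of the basement membrane. Of 10 tested laminin chains, 3 were upregulated DEGs under adenine and 5 after UUO, with 0 downregulated. Of all tested entries, 10.7% were upregulated and 5.03% downregulated under adenine, and 13.2% and 4.21% after UUO. The median log2 fold change of the laminin chains was 1.65 and 1.96, against 0.43 and 1.19 for the 9 members. Lamb3, a laminin chain of epithelia, was among them, from 0.487 ± 0.398 to 5.25 ± 1.899 FPKM under adenine (log2 fold change 3.35) and from 0.438 ± 0.225 to 19.4 ± 2.37 FPKM after UUO (log2 fold change 5.27). Among other basement membrane proteins, 2 of 15 were upregulated and 1 downregulated under adenine, near those shares, and 6 of 16 and 1 after UUO. Col15a1, a close relative of Col18a1, was among them (log2 fold change 4.22 and 3.94), and Tinag, an antigen of the tubular basement membrane, was the downregulated one (-2.50 and -2.08).

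Of the receptors that bind basement membranes, 2 of 10 were upregulated in each model, against 10.7% and 13.2% of all entries. One was the laminin receptor subunit Itgb4 (2.28 and 3.93). The other was the collagen receptor subunit Itga2 (3.30 and 2.72), which lay under 0.5 FPKM in every control and sham rat and so passed the filter only through the adenine and UUO rats. The same held for 2 of the 7 called proteases and inhibitors in each model, for 1 of 6 and 2 of 7 called fibrillar collagens, and, after UUO, for 1 of 6 other basement membrane proteins, 2 of 6 fibroblast and mesangial markers and 6 of 7 urothelial markers. Of the genes for collagen synthesis and folding, 1 of 11 was upregulated under adenine and 2 of 11 after UUO. Pxdn, the peroxidase that cross-links collagen IV, rose in both (log2 fold change 3.602 and 3.39), and Serpinh1, the collagen chaperone HSP47, passed in the UUO model (80.9 ± 4.37 to 467 ± 42.0 FPKM, log2 fold change 2.53). Of 9 matrix proteases and their inhibitors, 7 were upregulated in each model, led by Mmp7, listed at 0 in all control rats and at a mean of 57.1 FPKM in the adenine rats.

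Fibrillar collagens, the interstitial counterpart, were upregulated in 6 of 9 tested genes and downregulated in 1 (Col11a2) in the adenine model. In the UUO model 7 of 11 were upregulated. Of all tested entries, 10.7% were upregulated and 5.03% downregulated under adenine, and 13.2% and 4.21% after UUO. The median log2 fold changes of the fibrillar collagens were 2.80 and 3.96, against 0.30 and 0.62 for all tested entries. With a pseudocount of 1, 5 were upregulated and 0 downregulated in the adenine model, and 6 were upregulated after UUO. Measured in FPKM, the 6 collagen IV chains exceeded Col1a1 and Col3a1 together in every control and sham rat, with a log2 ratio of 1.68 ± 0.549 and 2.45 ± 0.663. The ratio was -0.86 ± 0.0670 in the adenine rats and -0.53 ± 0.881 in the UUO rats, where UUO rat 3 (0.25) was the only rat of the models above 0. The groups did not overlap (exact two-sided permutation p = 0.1 in each model).

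Whole-kidney RNA mixes cell types whose markers also moved. The abundant proximal tubule markers of the control and sham rats match the labelled tissue. Upregulated DEGs were 3 of 8 fibroblast and mesangial markers in the adenine model and 6 of 8 after UUO, 7 of 8 and 7 of 7 leukocyte markers, 0 of 7 and 1 of 7 endothelial markers, and 0 of 2 and 7 of 7 urothelial markers. Downregulated DEGs were 5 of 8 proximal tubule markers in each model and 2 of 8 and 3 of 8 collecting duct markers. Over all tested entries, 10.7% and 13.2% were upregulated DEGs and 5.03% and 4.21% downregulated DEGs. Of 7 and 8 tested podocyte markers, 0 were downregulated DEGs in either model. The summed FPKM of fibroblast and mesangial markers was 92.5 to 120 in the control rats and 365 to 455 in the adenine rats, and 93.4 to 123 in the sham rats and 1116 to 2008 in the UUO rats. That of 7 endothelial markers moved in opposite directions. It went from 130 to 158 down to 55.0 to 76.0 under adenine and from 141 to 158 up to 241 to 269 after UUO. The median log2 fold change of the endothelial markers was -0.72 under adenine, against 0.30 for all tested entries. After UUO it was 0.75, against 0.62 for all tested entries. With median-of-ratios scaling the endothelial median after UUO was 0.15. Leukocyte markers (45.2 to 49.0 against 993 to 1343, and 49.5 to 62.2 against 575 to 852) were higher and proximal tubule markers (9631 to 14150 against 156 to 537, and 10607 to 12489 against 327 to 658) were lower in both models. Collecting duct markers were 373 to 643 against 130 to 246 and 408 to 555 against 140 to 195, lower in both. Urothelial markers overlapped in the adenine model (0.800 to 8.96 against 1.22 to 7.78) and were 0.675 to 2.96 in the sham rats and 167 to 210 in the UUO rats, and Upk3a, Krt5 and Krt15 were at the lowest value in at least 1 rat of each table. The part of these cell types in the members' changes was not tested.

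Over the 12 rats, with values centred within each table, the 5 symbols whose pattern was most like that of Col4a1 were Col4a2 (Pearson r = 0.9996), Fstl1 (0.998), Col5a1, Tubb5 and Sf3b3 (0.996 each). For Col4a3 they were Rmdn1 (0.990), Usp26, Elfn1 and Aspa (0.989 each) and Nudt12 (0.987). Such correlations mostly carry the difference between groups, and 1901 of 13486 symbols exceeded 0.95 with Col4a1 and 431 with Col4a3. Among the members, Col4a3 and Col4a4 correlated at 0.969, Col4a1 and Col4a6 at 0.976, and Nid2 no higher than 0.618 with any other.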

How the data were processed

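Kidney RNA of 12 rats in 4 groups of 3 was compared. The authors deposited FPKM values per gene, with the adenine and UUO models in separate tables that were fitted separately. The submitters' processing notes name cutadapt 1.9, HISAT2 2.0.4, StringTie 1.3.4d, edgeR and DESeq2; the genome build is not given in the sources used here. Because FPKM are not counts, no count test was run, and read depth is unknown.

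Values were analysed as log2(FPKM + 0.1) for entries that reached 0.5 FPKM in 3 or more of 6 samples, with limma 3.58.1 (eBayes, trended) under R 4.3.3, and Benjamini-Hochberg adjustment over all tested entries of a table. DEGs were called at an adjusted p under 0.05 with a log2 fold change of 2 or more in size. The difference between models was divided by the root of the summed squared standard errors and read as t with both tables' degrees of freedom added. Shares and ratios used exact two-sided permutation tests over the 10 distinct splits of 6 samples. Python 3.11.15, pandas 2.3.3, numpy 2.4.6 and scipy 1.17.1 did the rest. The main limma fit of each table was first tested on simulated data. The alternative fits, the t test between models and the permutation tests were not.

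The members and gene lists were chosen with earlier results of these data known. All members were named, with up to 2 called genes with the largest rise and fall per list and model, and the 5 symbols most correlated with Col4a1 and Col4a3. Some genes that the rule names are not reported here. Lama3, Mia3 and Pecam1 in both tables, Col1a2 in the first and Cd79a in the second were not analysed here. A comparison of the chains' proteins was planned and not made, because no protein sequences were at hand. Alternatives were other pseudocounts, filters, scalings, thresholds, a fit without the trend, a replicate block and leaving out each sample. One, the absence of a fold threshold, was chosen after seeing the data.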

Additional observations from a re-analysis of the deposited data

Results flagged for a closer look

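The log2 fold change differed between the models for 4 members, by the test of the difference itself. It was larger in the UUO model by 0.80 for Col4a1 (2.30 and 3.10), by 0.82 for Col4a2 (2.06 and 2.88), by 0.82 for Col18a1 (0.59 and 1.41) and by 0.76 for Nid1 (0.43 and 1.19). The t test adjusted p of these differences was 0.0174, 0.0144, 0.0292 and 0.0295. All 3 UUO rats were above all 3 sham rats for each gene, and the adenine and control rats overlapped for Nid1. With quantile normalization the differences were 0.61, 0.68, 0.64 and 0.71 (t test adjusted p 0.0466, 0.029, 0.0715 and 0.0401), so that Col18a1 did not pass. With median-of-ratios scaling none of the 4 passed, and without the trend Col18a1 (t test adjusted p = 0.0506) and Nid1 (t test adjusted p = 0.0514) did not. Without a filter on low values Col18a1 did not pass (t test adjusted p = 0.0544). When 1 rat was left out, Col18a1 passed in 5 and Nid1 in 6 of 12 fits.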

How the results depend on the processing

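In the adenine model the 3 upregulated members became 1 with a pseudocount of 1 or median-of-ratios scaling and 1 to 3 when 1 rat was left out (1 without control rat 3 or adenine rat 2). The 1 downregulated member became 0 with a pseudocount of 1 or an equal FPKM sum, 0 to 1 when 1 rat was left out (0 without control rat 3), and 2 at a log2 threshold of 1 or none. In the UUO model the 3 upregulated members became 2 with a pseudocount of 1, median-of-ratios or quantile normalization and 2 to 3 when 1 rat was left out (2 without each UUO rat), in each case without Col4a6 (1.05, 1.58 and 1.27 under the first 3), 5 at a threshold of 1 and 7 at none. The 1 downregulated member became 0 with a pseudocount of 1 or an equal FPKM sum, 0 to 1 when 1 rat was left out (0 without sham rat 1), and 2 at a threshold of 1 or none. The members that differed between models went from 0 to 4 without a threshold. Reversed signs were those of Col4a5 in the adenine model (-0.28 with median-of-ratios, -0.28 with quantile normalization, and -0.12 to 0.19 when 1 rat was left out, with -0.10 without control rat 3, -0.12 without adenine rat 2 and -0.04 without adenine rat 3) and Nid2 with median-of-ratios (-0.0040 in the adenine model, -0.12 in the UUO model). For the difference between models they were Nid2 (-0.12 with median-of-ratios, -0.080 with quantile normalization, -0.027 to 0.37 when 1 rat was left out, with -0.027 without control rat 2 and -0.0085 without adenine rat 2), Col4a3 (-0.23 to 0.12 when 1 rat was left out, with 0.12 without control rat 2, 0.11 without sham rat 1, 0.041 without UUO rat 1) and Col4a6 (0.27 with a pseudocount of 1, -0.20 to 0.10 when 1 rat was left out, with 0.10 without control rat 3 and 0.073 without sham rat 2). The log2 ratio of Col4a5 to Col4a6 in the adenine model was -2.17 with a pseudocount of 0.1, and that of Col4a5 to podocyte markers in the UUO model 0.88 with the mean of the marker logs, and that of Col4a5 in the adenine model was -0.05 without control rat 3. Laminin chains called in the UUO model went from 5 to 3 with median-of-ratios and 2 with quantile normalization, receptors to 1 with it and to 0 with a pseudocount of 1 in the adenine model and to 1 with a pseudocount of 1 in the UUO model, and synthesis genes to 1 with median-of-ratios in the UUO model. Other basement membrane proteins upregulated in the UUO model went from 6 to 4 with median-of-ratios or quantile normalization. With a pseudocount of 1 they went to 5, and the 1 downregulated went to 0. Beyond what the scalings and thresholds do by construction, the cause was not tested. Replicate numbers did not pair the control and adenine rats (correlations of same-numbered deviations -0.123 to -0.0487). For the sham and UUO rats these correlations were low but positive (0.05 to 0.105). Each UUO rat, but no adenine rat, correlated best with its own number, and whether the numbers pair the sham and UUO rats was not tested. A replicate block gave the same counts, 3 and 1 in each model and 0 differing. When a rat was left out, Col4a6 passed the filter in 3 of 6 fits per model, and at a minimum FPKM of 1 it was not tested in the adenine model. Read depth is unknown, so what it limits was not tested.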

Other observations

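Podocyte markers went in different directions. After UUO, Synpo (synaptopodin, an actin-binding protein of podocyte foot processes) rose from 6.80 ± 1.98 to 15.1 ± 2.07 FPKM (log2 fold change 1.18, limma adjusted p = 0.00318). In the adenine model Podxl (podocalyxin, a sialylated surface protein) fell by 1.46 on the log2 scale (limma adjusted p = 0.0239), and Synpo did not pass (1.45, limma adjusted p = 0.0806).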
